A study of Homo sapiens with 18 samples.

Results

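The 42 genes described here encode proteins that carry a cell through mitosis: cyclins and kinases of mitotic entry, checkpoint and kinetochore proteins, spindle motors, and proteins of chromosome separation and cytokinesis. They were taken by gene symbol from the deposited table of raw counts, which lists 58735 genes. All 42 matched 1 Ensembl gene, and all 42 passed the filter on low counts that left 16129 genes for testing. The cells, of the line PODO/TERT256, were human podocytes made immortal by telomerase and were cultured on 3D hemispheres. The 6 groups were smooth and fractal topography, each left as control, treated with TNF-α plus IL-6 (called cytokines below), or inflamed by macrophages derived from THP-1 cells, with 3 libraries per group and 18 in all. THP-1 is a human monocytic leukaemia line, and telomerase immortalisation applies to every group, controls included. The labels give no dose, no exposure time, no step that separated macrophages from podocytes and no word on whether the cell types touched, and leave unsaid whether replicate libraries came from separate cultures. The p-values therefore measure only how far these libraries spread, which may be technical.

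Most of these genes are read at low level in resting cells and rise from late S phase to mitosis, so their RNA in a culture is widely used as a readout of dividing cells. Cyclin B with CDK1 drives entry into mitosis, the kinetochore ties chromosomes to spindle microtubules, and the checkpoint holds back the anaphase-promoting complex until every chromosome is attached. Podocytes in the adult kidney rarely divide, whereas an immortalised line grows in culture. In RNA from whole cultures, fewer dividing cells and less mitotic RNA per dividing cell cannot be told apart.

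Library totals ran from 11488204 to 21264180 counts, and the 42 genes together took 5816 to 73548 counts per library. Levels are in CPM, counts scaled to library depth by TMM, given in the order of replicates 1, 2 and 3. Both fractal THP-1 replicate 3 and smooth cytokines replicate 2 stood apart from the rest. The former had 0.847% of its counts on mitochondrially encoded genes and the fewest genes detected (17934), and the latter had 8.09% mitochondrial counts. Every other library had 3.86% to 4.63%. Among podocyte markers NPHS1 had 6 counts and WT1 37 over all libraries, while SYNPO and PODXL were detected in all 18. The 20 monocyte and macrophage markers, of which 12 were tested, summed to 1.98 to 3.34 CPM in controls and 2.19 to 5.06 CPM with cytokines. With THP-1 cells the sum was 63.5 to 72.3 CPM on the smooth surface and 29.3 to 34.6 CPM on the fractal surface, with 12 and 11 of the 12 markers higher than control. Between the surfaces with THP-1 cells 4 of the 12 were lower on fractal topography, and none passed in the interaction of topography with THP-1 cells. C1QB had 0 counts in all libraries, and AIF1, C1QA, C1QC, LYZ and MRC1 had at most 7 each over all 18. The part of the macrophage RNA in the results below was not tested.

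The mitotic genes were highest in the controls, lower with cytokines on both topographies, lower with THP-1 cells on smooth topography, and lowest with THP-1 cells on fractal topography. Summed over the 42 genes, smooth controls held 3909 ± 23 CPM and fractal controls 3462 ± 7.2 CPM (mean ± SD, n = 3 here and below). With cytokines the sum was 1937 ± 284 CPM on the smooth surface and 1771 ± 158 CPM on the fractal surface. With THP-1 cells it was 2075 ± 96 CPM on smooth topography, 53.1% of the smooth controls. On fractal topography with THP-1 cells it was 520 ± 27 CPM, 15.02% of the fractal controls. For 41 of the 42 genes, all but PRC1, the 3 fractal THP-1 values lay below those of the other 15 libraries, as they did for 7.94% of all genes tested.

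**Figure D1:**
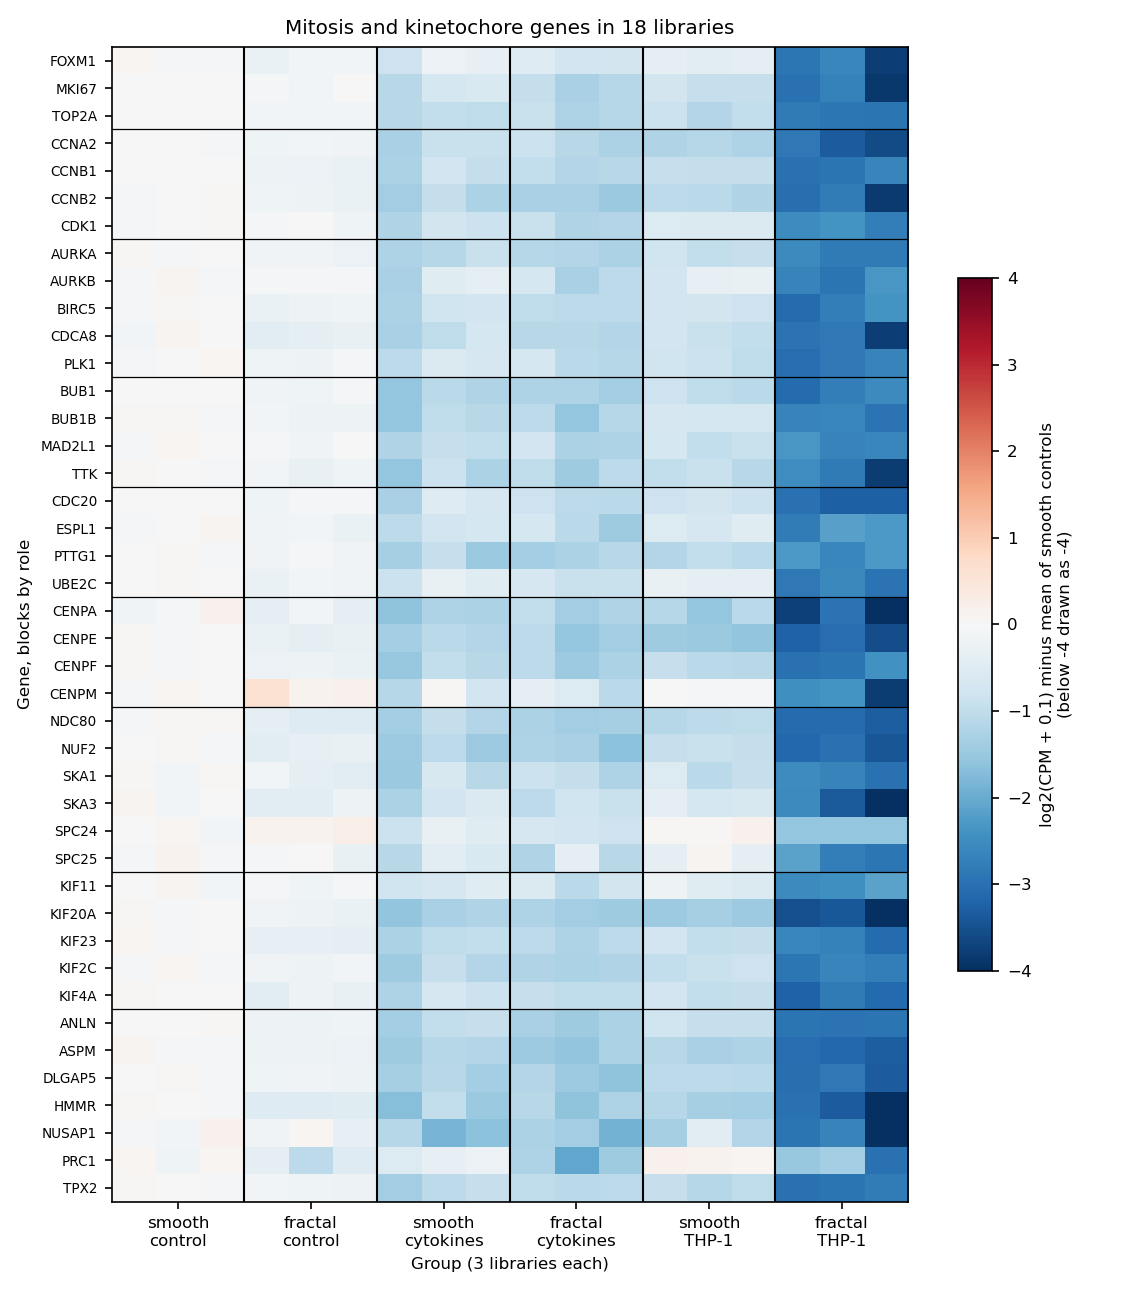
Level of each of the 42 genes (rows, in blocks by role) in each of the 18 libraries (columns, 3 per group), as log2(CPM + 0.1) minus the mean of the smooth controls, with blue lower and the lowest values drawn at the end of the colour scale. The cytokine libraries and the smooth THP-1 libraries are paler than the 3 fractal THP-1 libraries, which are the darkest block for every gene but PRC1.

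The comparison of treatment with control asks how the mitotic genes of these podocytes differ under the inflammatory treatments on each surface. With cytokines on smooth topography, 40 of the 42 genes fell and none rose (edgeR quasi-likelihood test, Benjamini-Hochberg adjusted p below 0.05 over all genes), against 12.4% of all genes that fell. The median log2 fold change was -1.04, which is 48.6% of the control level, beside 0.01 over all genes tested. NUSAP1, which bundles microtubules, had the lowest value (-1.55 ± 0.32, SE), followed by the centromeric histone CENPA (-1.37 ± 0.20). Both genes share exon sequence with another gene on the same strand. The highest values belonged to PRC1 (-0.39 ± 0.45, adjusted p = 0.581) and FOXM1 (-0.45 ± 0.15), and CENPM also missed the threshold (-0.55 ± 0.27, adjusted p = 0.142). CENPM rested on 1 library: without smooth cytokines replicate 2 it was at -0.97 and passed (adjusted p = 0.0111), as it did without both libraries that stood apart (-0.97, adjusted p = 0.00081). SPC25 was lost without smooth control replicate 2 (0.0936) or smooth cytokines replicate 1 (0.122).

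With cytokines on fractal topography, 41 of the 42 genes fell and none rose, against 12.9% of all genes. The median was -0.95 beside 0.03 over all genes. NUSAP1 (-1.38 ± 0.32) and the spindle protein gene DLGAP5 (-1.22 ± 0.11) were lowest, and FOXM1 (-0.52 ± 0.16) and SKA3, a kinetochore gene (-0.55 ± 0.20), were highest. PRC1, at 0.246 to 0.532 CPM with cytokines, did not pass (-1.06 ± 0.51, adjusted p = 0.134). SKA3 missed the threshold when any 1 of fractal control replicates 1 to 3 or fractal cytokines replicates 1 to 3 was left out (adjusted p 0.0542 to 0.162). FOXM1 was lost without fractal control replicates 2 or 3 or fractal cytokines replicates 2 or 3 (0.0506 to 0.059). SPC25 was lost without fractal control replicates 1 or 2 or fractal cytokines replicates 1 or 3 (0.0555 to 0.0817), and CENPM without fractal control replicate 1 or fractal cytokines replicate 3 (0.0646 and 0.0533). On smooth topography the call of FOXM1 was lost if smooth control replicate 1, 2 or 3 was left out, or smooth cytokines replicate 1 (0.0681 to 0.175).

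The response to cytokines was not shown to differ between the surfaces. In the interaction of topography with cytokines, 0 of 42 genes passed in edgeR, DESeq2 and limma-voom, and 3 had an unadjusted p below 0.05 in edgeR. The share of all genes at that unadjusted p was not counted. In edgeR 436 of all 16129 genes passed, 230 lower (1.43%) and 206 higher. The median difference between the responses was 0.09 on the log2 scale. HMMR, a spindle and hyaluronan-binding protein gene (0.57 ± 0.24, adjusted p = 0.28), and CENPA (0.47 ± 0.27) had the highest differences, and PRC1 (-0.67 ± 0.67) and SPC24 (-0.41 ± 0.18) the lowest. Without the libraries that stood apart, HMMR (0.80 ± 0.15, adjusted p = 0.000235) and the cytokinesis motor gene KIF23 (0.34 ± 0.11, adjusted p = 0.0352) passed, both with the smaller fall on fractal topography. In that fit 1461 of all 16569 genes passed in either direction, a larger share than 2 of the 42.

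With THP-1 cells on smooth topography, 37 of the 42 genes fell and none rose, against 17.7% of all genes. The median was -0.89, or 53.9% of control, beside 0.02 over all genes. The kinetochore motor gene CENPE (-1.49 ± 0.11) and KIF20A, a kinesin of cytokinesis (-1.41 ± 0.12), fell most. The 5 genes that did not pass were PRC1 (0.14 ± 0.44), SPC24 (0.09 ± 0.12), CENPM (-0.07 ± 0.26), SPC25 (-0.19 ± 0.22) and AURKB (-0.46 ± 0.19, adjusted p = 0.0596), of which SPC24, SPC25 and CENPM encode kinetochore subunits. FOXM1 (-0.41 ± 0.15, adjusted p = 0.043) missed the threshold when any 1 of smooth control replicates 1 to 3 or smooth THP-1 replicates 1 to 3 was left out (0.0751 to 0.132). UBE2C was lost without smooth control replicate 2 or smooth THP-1 replicates 2 or 3 (0.0564 to 0.0649), and KIF11 without smooth THP-1 replicate 3 (0.0592). SKA3 was lost without smooth control replicates 1 or 3 or smooth THP-1 replicates 2 or 3 (0.0655 to 0.108), and NUSAP1 without smooth control replicate 3 or smooth THP-1 replicates 1 or 3 (0.0713 to 0.0984).

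With THP-1 cells on fractal topography all 42 genes fell, against 25.5% of all genes. The median was -2.72, or 15.2% of control, beside 0.04 over all genes. KIF20A (-3.49 ± 0.15), at 8.90% of its control level, and CENPA (-3.28 ± 0.24) fell most. PRC1 (-1.31 ± 0.52) and SPC24 (-1.74 ± 0.13) fell least. PRC1, with 0.0843 to 0.473 CPM in these libraries, missed the threshold without fractal control replicates 1 or 3 or fractal THP-1 replicates 1 or 3 (adjusted p 0.0563 to 0.176) and without both libraries that stood apart (0.178). For the other 41 genes the fall passed also without those libraries.

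The interaction asks whether the response to THP-1 cells depended on the surface. It was lower on fractal topography for 41 of 42 genes, against 7.88% of all genes, and PRC1 alone did not pass (-1.45 ± 0.68, adjusted p = 0.171). The median difference between the responses was -1.83 on the log2 scale, beside 0.00 over all genes. CENPM (-3.05 ± 0.42) and FOXM1 (-2.43 ± 0.23) had the lowest values, and PTTG1 (-1.21 ± 0.17) had the highest, followed by PRC1. Between the surfaces within the THP-1 groups, all 42 genes were lower on fractal topography, against 11.7% of all genes, with a median of -2.00, or 25.0% of the smooth level. The range ran from CENPM (-2.73 ± 0.33) and SKA3 (-2.65 ± 0.24) to SPC24 (-1.65 ± 0.14) and PTTG1 (-1.33 ± 0.13). Without the libraries that stood apart the medians were -1.79 for the interaction and -1.94 between the surfaces, with 41 and 42 genes called. The groups share control libraries, so the comparisons are set side by side and are not independent of each other.

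**Figure D2:**
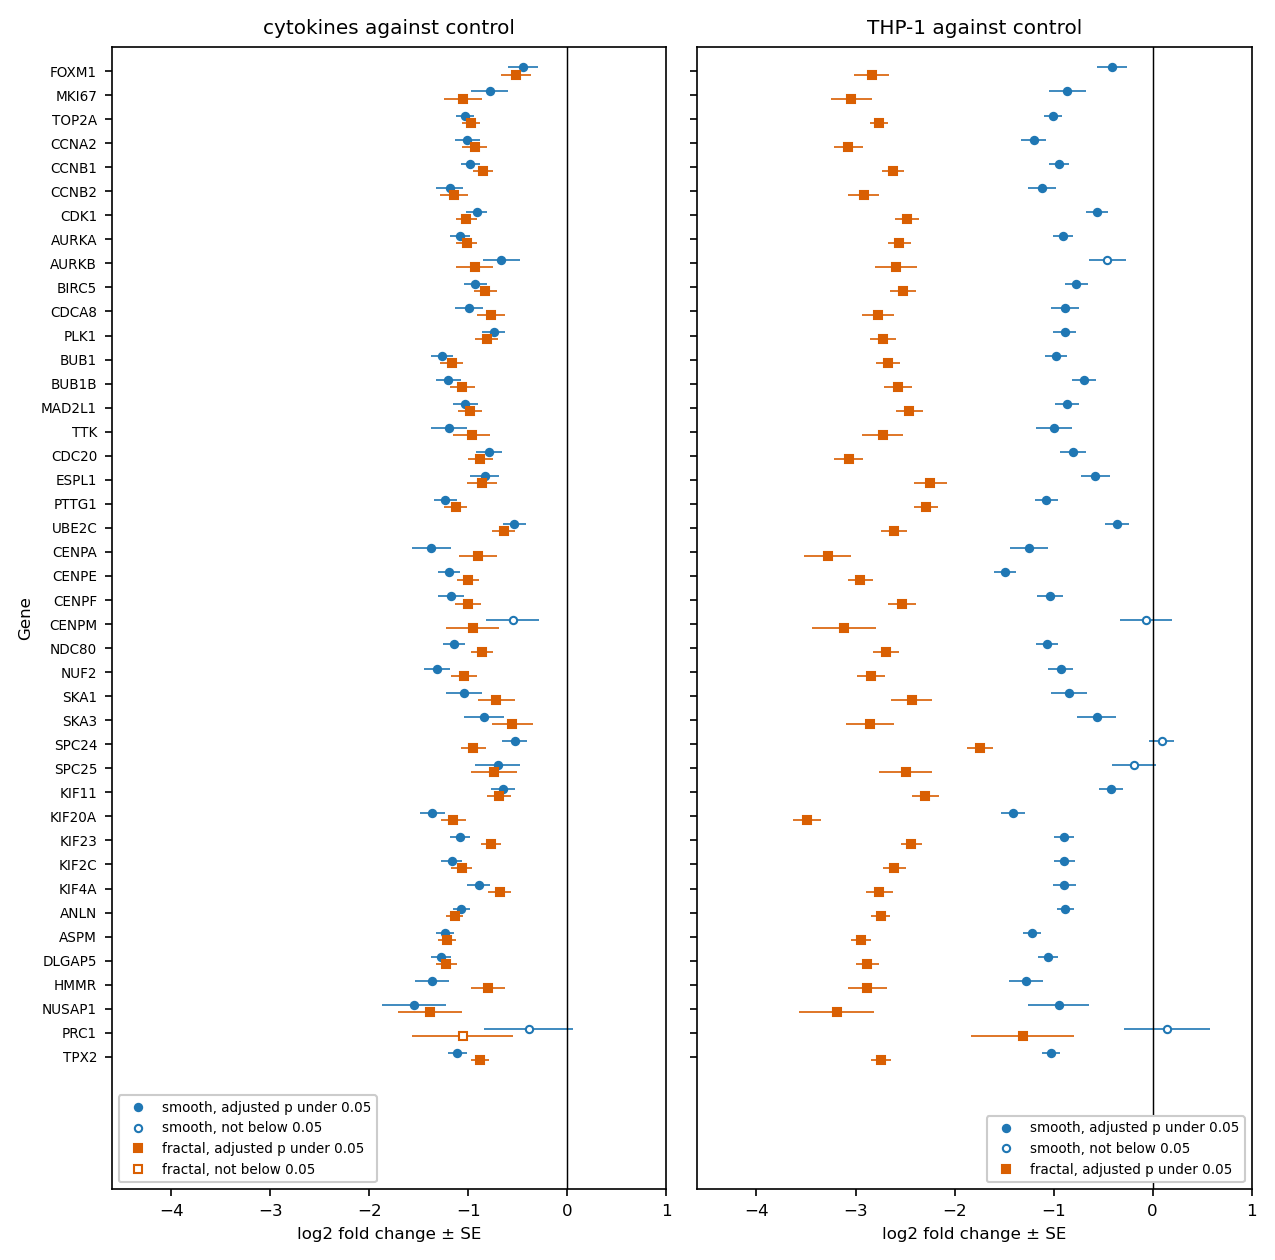
Log2 fold change (horizontal axis, bars ± SE) of each of the 42 genes for cytokines against control (left) and THP-1 against control (right), on smooth (blue circles) and fractal (orange squares) topography, with open symbols for adjusted p not below 0.05. On the left the symbols of the surfaces lie close together around medians of -1.04 and -0.95, and on the right the fractal symbol (median -2.72) lies left of the smooth one (median -0.89) for every gene.

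Without treatment the differences between the surfaces were small. Of the 42 genes 1 passed, NDC80, which was lower on fractal topography (-0.47 ± 0.11, adjusted p = 0.019), against 1.12% of all genes. The log2 fold change was below zero for 40 genes, with a median of -0.18, or 88.5% of the smooth level, beside -0.01 over all genes. For 31 genes all 3 fractal values lay below all 3 smooth values, as they did for 15% of all genes tested. Only CENPM (0.32 ± 0.26) and SPC24 (0.18 ± 0.12) were above zero, and PRC1 (-0.68 ± 0.45) and HMMR (-0.51 ± 0.17) were lowest, none of these passing. NDC80 missed the threshold when any 1 of smooth control replicates 1 to 3 or fractal control replicates 1 to 3 was left out (adjusted p 0.0552 to 0.132). A fit to the 6 control libraries alone called 29 of the 42, all lower, and 2755 of all 14187 genes tested, in either direction. A fit without the libraries that stood apart, neither a control, called 8 of the 42 and 1188 of all 16569 genes. The main fit called 286 of all 16129 genes in either direction. The median coefficient of variation of the 42 genes between replicates was 4.19% in smooth and 4.10% in fractal controls, against 17.4% with cytokines on smooth topography and 17.0% with THP-1 cells on fractal topography.

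Under cytokines the surfaces were not distinguished: 0 of 42 genes passed in edgeR, DESeq2 and limma-voom, against 2.74% of all genes lower in edgeR, and 4 had an unadjusted p below 0.05. The share of all genes at that unadjusted p was not counted. The median was -0.11. PRC1 (-1.35 ± 0.50) and AURKB (-0.34 ± 0.19) were lowest, and CENPA (0.18 ± 0.20) and TPX2 (0.06 ± 0.09) highest. PRC1 alone had all 3 fractal values below the smooth ones, which 9.17% of all genes had. Smooth cytokines replicate 1 had the lowest value of its group for 38 of the 42 genes. Without it CDC20, UBE2C, AURKB and ANLN passed as lower on fractal topography (4 genes, AURKB at an adjusted p of 0.0403), and TPX2 turned to -0.08. In that fit 649 of all 16758 genes passed in either direction.

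Promoter sequences are shown because the genes moved together and because promoters of mitotic genes are known for a pair of short elements: the CHR, TTTGAA, bound by the MuvB complex, and CCAAT, bound by NF-Y. RefSeq windows (GRCh38.p14) from 250 bases before to 50 after the start were found for 35 of the 42 genes. TTTGAA, searched on both strands, was in 26 of the 35 (74.3%), against 18.2% of 27305 genes with a window and 14.0% of the 11381 of them that were tested. CCAAT, on both strands, was in 27 of 35 (77.1%), against 39.7% of all and 42.7% of tested genes. Both motifs shared 1 window for 20 genes (57.1%), against 7.26% of all genes. The E2F-type octamers TTTGGCGC and TTTCGCGC were in 2 of the 35 (5.71%, against 1.40% of all and 2.40% of tested genes). TTCGAA was in 2 as well (5.71%, against 1.82% of all and 2.30% of tested genes). In 18 genes a TTTGAA lay within 70 bases upstream of the start, and 2 TTTGAA matches overlapped a CCAAT match. Below are the 120 bases before the start of 7 of these genes, 5′ to 3′ on the gene's strand, with TTTGAA and CCAAT and their reverse complements TTCAAA and ATTGG in capitals.
MKI67 promoter, chr10:128126424-128126543, minus strand: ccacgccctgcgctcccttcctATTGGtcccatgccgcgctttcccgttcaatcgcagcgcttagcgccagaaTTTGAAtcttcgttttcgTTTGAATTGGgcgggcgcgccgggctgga
CDC20 promoter, chr1:43358861-43358980, plus strand: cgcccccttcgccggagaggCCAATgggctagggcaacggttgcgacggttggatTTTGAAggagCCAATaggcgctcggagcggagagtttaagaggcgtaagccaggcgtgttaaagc
ESPL1 promoter, chr12:53268179-53268298, plus strand: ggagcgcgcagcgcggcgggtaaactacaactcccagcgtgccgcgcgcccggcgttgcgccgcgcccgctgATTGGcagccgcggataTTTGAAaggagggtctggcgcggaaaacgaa
ASPM promoter, chr1:197146670-197146789, minus strand: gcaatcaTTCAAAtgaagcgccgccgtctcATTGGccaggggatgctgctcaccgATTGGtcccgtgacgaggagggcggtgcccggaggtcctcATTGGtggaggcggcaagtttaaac
KIF4A promoter, chrX:70289984-70290103, plus strand: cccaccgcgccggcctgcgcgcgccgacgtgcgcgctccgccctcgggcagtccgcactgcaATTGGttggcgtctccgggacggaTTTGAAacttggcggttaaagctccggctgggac
KIF11 promoter, chr10:92593010-92593129, plus strand: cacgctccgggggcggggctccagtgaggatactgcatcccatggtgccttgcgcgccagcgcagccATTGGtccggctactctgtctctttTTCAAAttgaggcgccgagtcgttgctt
CENPF promoter, chr1:214603075-214603194, plus strand: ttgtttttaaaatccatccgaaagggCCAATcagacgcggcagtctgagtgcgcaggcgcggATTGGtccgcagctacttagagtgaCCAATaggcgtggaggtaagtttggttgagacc
MKI67 has a TTTGAA 47 and another 29 bases before the start, the second overlapping a CCAAT on the other strand, and ESPL1 and KIF4A have one at 31 and 34 bases. CENPF has 3 CCAAT and no TTTGAA in the stretch shown, and its window holds a TTTGAA 40 bases after the start. A match is a description of the letters, not of binding.

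Among the cycle regulators, TOP2A (ENSG00000131747, chromosome 17, 40388516 to 40417950; positions are GRCh38, GENCODE 29) encodes topoisomerase II alpha, which untangles sister chromatids. TOP2A read 371, 372 and 374 CPM in smooth and 346, 346 and 345 CPM in fractal controls. With cytokines TOP2A read 171, 189 and 185 CPM on the smooth surface and 203, 158 and 168 CPM on the fractal surface. With THP-1 cells TOP2A read 205, 164 and 188 CPM on the smooth surface and 52.5, 50.6 and 49.5 CPM on the fractal surface. The 9 values of the cytokine groups and the smooth THP-1 group overlapped one another, and the fractal THP-1 values lay far below them. The log2 fold changes were -1.004 ± 0.09 and -2.76 ± 0.09 for THP-1 cells on smooth and fractal topography.

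MKI67 (ENSG00000148773, chromosome 10, 128096659 to 128126385) encodes Ki-67, the proliferation antigen that coats mitotic chromosomes. MKI67 read 397, 391 and 401 CPM in smooth and 384, 369.8 and 389 CPM in fractal controls. With cytokines MKI67 read 183, 244 and 262 CPM on the smooth surface and 206, 163 and 179.7 CPM on the fractal surface. With THP-1 cells MKI67 read 236, 209 and 208 CPM on the smooth surface and 50, 60.6 and 27.1 CPM on the fractal surface. Fractal THP-1 replicate 3 was the lowest of its group, and the log2 fold change on fractal topography was -3.04 ± 0.21 with it and -2.79 ± 0.16 without both libraries that stood apart.

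FOXM1 (ENSG00000111206, chromosome 12, 2857681 to 2877155) encodes a transcription factor of late cell cycle genes. FOXM1 read 64.1, 59.0 and 59.0 CPM in smooth and 51.0, 55.8 and 56.8 CPM in fractal controls. With cytokines FOXM1 read 34.4, 51.1 and 47.8 CPM on the smooth surface and 42.8, 35.4 and 36.1 CPM on the fractal surface. With THP-1 cells FOXM1 read 47.4, 44.0 and 45.7 CPM on the smooth surface and 8.10, 9.87 and 4.38 CPM on the fractal surface. Its falls with cytokines and on smooth topography with THP-1 cells were among the smallest of the 42, and the highest smooth cytokine value overlapped the fractal controls. On fractal topography with THP-1 cells its log2 fold change of -2.84 ± 0.18 stood beside a median of -2.72 for the 42.

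Of the cyclins and CDK1, all 4 genes fell in each of the 4 comparisons of treatment with control. CCNB1 (ENSG00000134057, chromosome 5, 69167010 to 69178245), cyclin B1, read 141, 139 and 139 CPM in smooth and 120.3, 119.9 and 116 CPM in fractal controls. With cytokines CCNB1 read 57.6, 83.0 and 72.1 CPM on the smooth surface and 69.97, 61.8 and 65.3 CPM on the fractal surface. With THP-1 cells CCNB1 read 74.4, 71.6 and 71.5 CPM on the smooth surface and 17.7, 18.3 and 22.3 CPM on the fractal surface. Control values of the surfaces did not overlap, cytokine values did, and fractal THP-1 replicate 3 was the highest of its group. CDK1, the kinase that cyclin B activates, read 81.1, 82.7 and 85.9 CPM in smooth and 80.0, 83.9 and 73.8 CPM in fractal controls. With cytokines CDK1 read 36.0, 50.2 and 46.1 CPM on the smooth surface and 44.4, 36.2 and 36.7 CPM on the fractal surface. With THP-1 cells CDK1 read 57.0, 56.1 and 55.9 CPM on the smooth surface and 14.3, 15.8 and 12.1 CPM on the fractal surface. Its smooth THP-1 values lay above all smooth cytokine values, and its log2 fold change there was -0.56 ± 0.11, beside those of the cyclin A2 gene CCNA2 (-1.20 ± 0.13) and the cyclin B2 gene CCNB2 (-1.12 ± 0.14).

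Mitotic kinases and the chromosomal passenger complex, which corrects wrong attachments at the centromere, held 5 genes, and all 5 fell in 3 of the 4 treatment comparisons. With THP-1 cells on smooth topography 4 fell, AURKB being the exception. PLK1 (ENSG00000166851, chromosome 16, 23677656 to 23690367), polo-like kinase 1, read 98.1, 102 and 109 CPM in smooth and 90.9, 88.9 and 100.01 CPM in fractal controls. With cytokines PLK1 read 50.2, 69.6 and 65.0 CPM on the smooth surface and 63.9, 48.3 and 47.0 CPM on the fractal surface. With THP-1 cells PLK1 read 58.7, 56.9 and 51.4 CPM on the smooth surface and 12.5, 14.1 and 16.2 CPM on the fractal surface. The surfaces overlapped in the controls and with cytokines and were apart with THP-1 cells (-1.97 ± 0.13). AURKB, aurora B, the enzyme of the passenger complex, read 29.3, 33.3 and 29.9 CPM in smooth and 29.4, 29.4 and 29.3 CPM in fractal controls. With cytokines AURKB read 12.4, 21.8 and 24.2 CPM on the smooth surface and 18.7, 12.5 and 14.9 CPM on the fractal surface. With THP-1 cells AURKB read 18.2, 24.5 and 24.9 CPM on the smooth surface and 4.75, 3.96 and 6.07 CPM on the fractal surface. All treated values lay below all control values, and AURKB missed the threshold with cytokines on smooth topography without smooth cytokines replicate 1 (adjusted p = 0.0588). BIRC5, survivin, another passenger subunit, read 94.8, 101 and 98.5 CPM in smooth and 82.2, 84.6 and 87.1 CPM in fractal controls. With cytokines BIRC5 read 41.0, 55.9 and 57.4 CPM on the smooth surface and 48.8, 46.9 and 47.1 CPM on the fractal surface. With THP-1 cells BIRC5 read 58.1, 59.5 and 54.8 CPM on the smooth surface and 11.6, 14.4 and 18.6 CPM on the fractal surface. Its smooth cytokine and smooth THP-1 values overlapped, and AURKA (-2.56 ± 0.11) and CDCA8, which encodes borealin (-2.77 ± 0.16), fell on fractal topography with THP-1 cells as BIRC5 did (-2.52 ± 0.13).

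The spindle assembly checkpoint was represented by 4 genes, all of which fell in the 4 treatment comparisons. BUB1 (ENSG00000169679, chromosome 2, 110637698 to 110678114), a checkpoint kinase of the kinetochore, read 92.9, 96.0 and 95.1 CPM in smooth and 86.8, 83.4 and 89.6 CPM in fractal controls. With cytokines BUB1 read 32.3, 45.1 and 40.8 CPM on the smooth surface and 39.8, 39.9 and 35.8 CPM on the fractal surface. With THP-1 cells BUB1 read 52.8, 46.4 and 44.7 CPM on the smooth surface and 11.1, 14.0 and 16.01 CPM on the fractal surface. Every treated value lay below every control value. MAD2L1, the checkpoint protein MAD2, read 56.3, 62.8 and 57.9 CPM in smooth and 56.0, 53.3 and 57.9 CPM in fractal controls. With cytokines MAD2L1 read 25.3, 31.4 and 29.9 CPM on the smooth surface and 34.9, 24.6 and 25.1 CPM on the fractal surface. With THP-1 cells MAD2L1 read 35.8, 29.8 and 31.5 CPM on the smooth surface and 11.6, 9.22 and 9.52 CPM on the fractal surface. The controls of the surfaces overlapped for MAD2L1, and with THP-1 cells the fractal values were lower (-1.67 ± 0.14), as for BUB1B, which encodes BubR1 (-2.04 ± 0.14), and the kinase gene TTK (-1.92 ± 0.21).

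**Figure D3:**
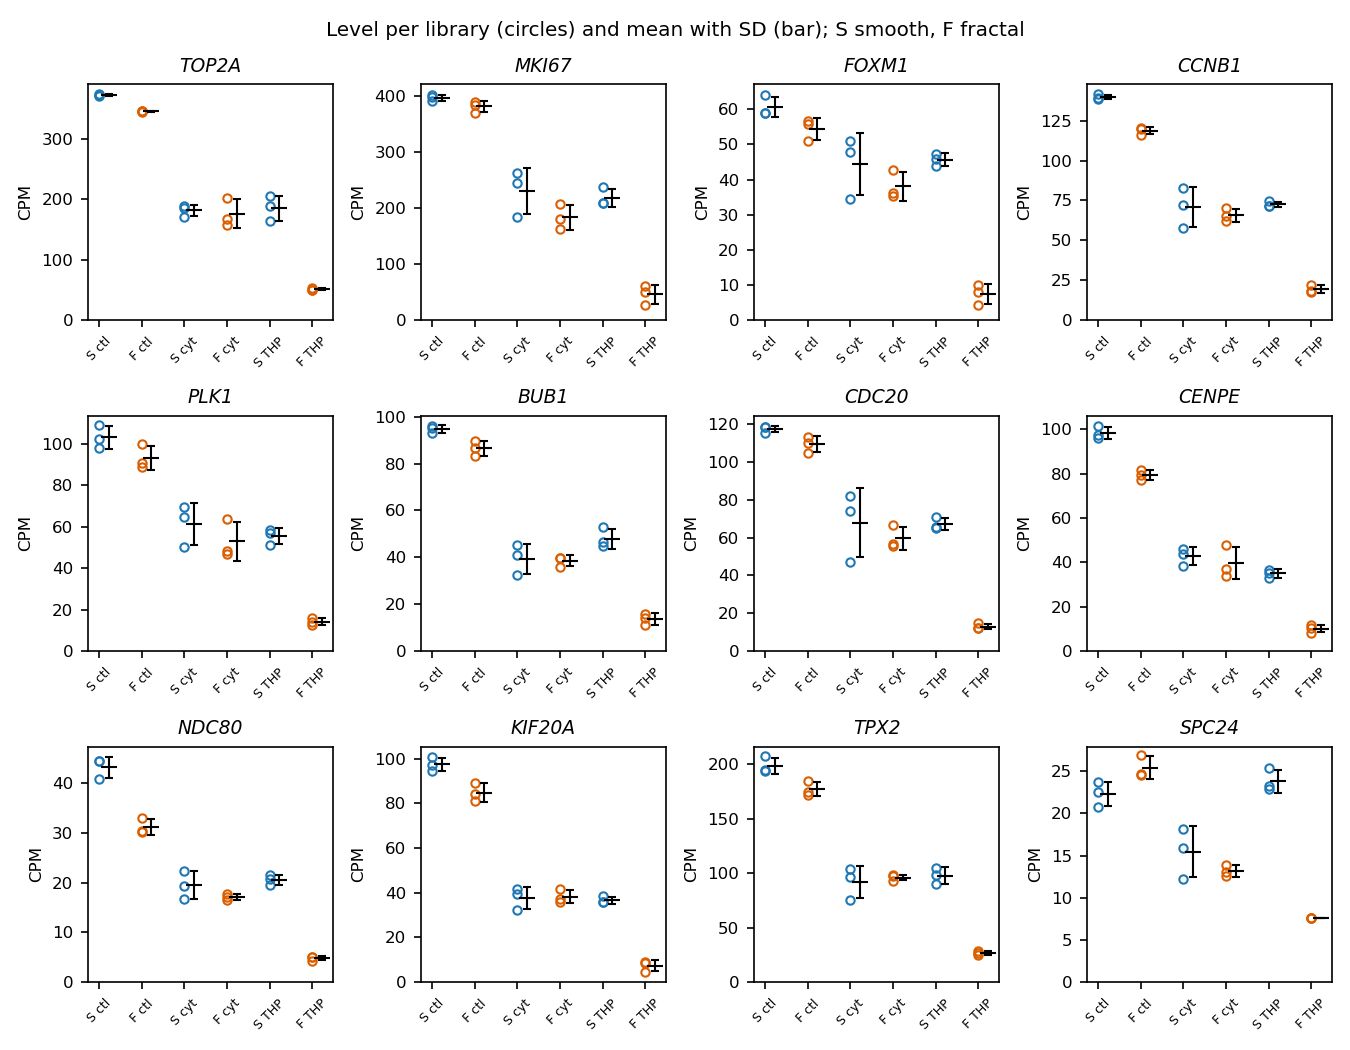
Level (CPM, linear vertical axis from 0) of 12 of the genes in each library (circles, blue smooth and orange fractal) with the mean ± SD of 3 libraries beside them, for controls, cytokines and THP-1 cells. Circles of the fractal THP-1 group lie below those of every other group in all 12 panels, TOP2A at 49.5 to 52.5 CPM against 345 to 346 CPM in its controls, and SPC24 is the panel where smooth THP-1 circles reach the control level.

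Partners of the anaphase-promoting complex and genes of sister separation, 4 in all, fell in the 4 treatment comparisons. CDC20 (ENSG00000117399, chromosome 1, 43358955 to 43363203), the activator of the complex that the checkpoint restrains, read 118, 118 and 115 CPM in smooth and 104.8, 113 and 110.2 CPM in fractal controls. With cytokines CDC20 read 47.2, 82.1 and 73.9 CPM on the smooth surface and 66.5, 56.8 and 55.4 CPM on the fractal surface. With THP-1 cells CDC20 read 65.4, 71.1 and 65.1 CPM on the smooth surface and 14.7, 12.2 and 12.1 CPM on the fractal surface. Smooth cytokines replicate 1 was the lowest of its group, and the surfaces overlapped there. UBE2C, the ubiquitin-conjugating enzyme of the complex, read 45.9, 47.9 and 46.3 CPM in smooth and 38.6, 42.8 and 42.5 CPM in fractal controls. With cytokines UBE2C read 25.7, 37.7 and 33.2 CPM on the smooth surface and 29.3, 25.1 and 25.0 CPM on the fractal surface. With THP-1 cells UBE2C read 38.1, 35.9 and 35.3 CPM on the smooth surface and 6.34, 7.80 and 5.98 CPM on the fractal surface. UBE2C fell little on smooth topography (-0.36 ± 0.12) and much on fractal topography (-2.61 ± 0.13). PTTG1, securin, which the complex destroys to release separase, read 75.0, 75.9 and 71.1 CPM in smooth and 67.0, 70.4 and 67.4 CPM in fractal controls. With cytokines PTTG1 read 29.3, 39.1 and 26.2 CPM on the smooth surface and 28.9, 30.8 and 34.0 CPM on the fractal surface. With THP-1 cells PTTG1 read 33.1, 37.4 and 34.8 CPM on the smooth surface and 15.02, 11.9 and 15.1 CPM on the fractal surface. Its difference between surfaces with THP-1 cells (-1.33 ± 0.13) was the smallest of the 42, and that of ESPL1, separase, was -1.84 ± 0.17.

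Centromere proteins numbered 4. CENPA, the histone H3 variant that marks the centromere, read 17.5, 18.8 and 21.8 CPM in smooth and 14.6, 17.8 and 14.9 CPM in fractal controls. With cytokines CENPA read 6.28, 8.05 and 8.03 CPM on the smooth surface and 9.78, 7.31 and 8.27 CPM on the fractal surface. With THP-1 cells CENPA read 8.73, 6.499 and 9.15 CPM on the smooth surface and 1.35, 2.42 and 0.927 CPM on the fractal surface. Its exons overlap SLC35F6 on the same strand, so its level is uncertain. CENPE (ENSG00000138778, chromosome 4, 103105806 to 103198409), a kinesin that moves chromosomes to the spindle equator, read 102, 96.3 and 97.4 CPM in smooth and 81.9, 77.3 and 79.3 CPM in fractal controls. With cytokines CENPE read 38.5, 46.2 and 44.0 CPM on the smooth surface and 48.0, 33.9 and 37.2 CPM on the fractal surface. With THP-1 cells CENPE read 36.8, 35.5 and 33.0 CPM on the smooth surface and 10.3, 11.8 and 8.34 CPM on the fractal surface. For CENPE the smooth THP-1 values lay below all smooth cytokine values. CENPF, a large protein of the outer kinetochore, read 292, 266 and 285 CPM in smooth and 238, 242 and 234 CPM in fractal controls. With cytokines CENPF read 99.0, 143 and 131 CPM on the smooth surface and 137, 102 and 118 CPM on the fractal surface. With THP-1 cells CENPF read 148, 132 and 130.4 CPM on the smooth surface and 35.2, 37.2 and 51.9 CPM on the fractal surface. Fractal THP-1 replicate 3 was the highest of its group for CENPF and the lowest for CENPM, at 1.23, 1.30 and 0.421 CPM. CENPM, a subunit of the inner kinetochore, read 6.88, 7.66 and 7.03 CPM in smooth and 10.96, 7.89 and 8.09 CPM in fractal controls, and 7.16, 6.73 and 6.74 CPM with THP-1 cells on smooth topography. Those smooth THP-1 values overlapped the smooth controls.

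The NDC80 and SKA complexes bind the kinetochore to microtubules, and 6 of their subunit genes were among the 42. All 6 fell with cytokines on both surfaces and with THP-1 cells on fractal topography, and 4 fell with THP-1 cells on smooth topography. NDC80 (ENSG00000080986, chromosome 18, 2571511 to 2616635), which contacts the microtubule, read 40.8, 44.5 and 44.4 CPM in smooth and 33.1, 30.3 and 30.3 CPM in fractal controls. With cytokines NDC80 read 16.8, 22.4 and 19.3 CPM on the smooth surface and 17.8, 16.6 and 17.2 CPM on the fractal surface. With THP-1 cells NDC80 read 19.6, 20.7 and 21.5 CPM on the smooth surface and 5.05, 5.02 and 4.30 CPM on the fractal surface. The 3 levels of controls, intermediate groups and fractal THP-1 libraries did not overlap. SKA1, a microtubule-binding subunit, read 22.4, 19.8 and 22.3 CPM in smooth and 20.0, 16.4 and 16.1 CPM in fractal controls. With cytokines SKA1 read 7.62, 13.7 and 9.89 CPM on the smooth surface and 11.9, 10.997 and 9.10 CPM on the fractal surface. With THP-1 cells SKA1 read 14.5, 10.1 and 11.3 CPM on the smooth surface and 3.70, 3.31 and 2.61 CPM on the fractal surface. NUF2, the partner of NDC80, fell with THP-1 cells on fractal topography too (-2.84 ± 0.15, beside -2.69 ± 0.13 for NDC80).

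SPC24 and SPC25 form the inner end of the NDC80 complex. SPC24 (ENSG00000161888, chromosome 19, 11131520 to 11155808) read 22.5, 23.7 and 20.8 CPM in smooth and 24.6, 24.7 and 27.0 CPM in fractal controls. With cytokines SPC24 read 12.2, 18.2 and 15.9 CPM on the smooth surface and 13.9, 13.02 and 12.5 CPM on the fractal surface. With THP-1 cells SPC24 read 22.9, 23.2 and 25.3 CPM on the smooth surface and 7.57, 7.57 and 7.59 CPM on the fractal surface. Smooth THP-1 values overlapped the smooth controls, and fractal controls lay above the smooth ones. The libraries kept no strand. Of the 42 genes, 13, SPC24 among them, share exon sequence with a gene on the other strand and 4 with another gene on the same strand, so their levels are less certain. PRC1, a cytokinesis protein gene, is one of them: it read 1.47, 1.21 and 1.45 CPM in smooth controls, while AC068831.7, which overlaps it on the same strand, had 8.83 CPM. NUSAP1 is another, and AC087721.2, which overlaps it on the same strand, had 0 CPM in every group.

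The 5 mitotic kinesins fell in all 4 treatment comparisons. KIF20A (ENSG00000112984, chromosome 5, 138178719 to 138187715), a motor of the midzone and cytokinesis, read 101, 94.5 and 97.1 CPM in smooth and 89.2, 84.4 and 81.0 CPM in fractal controls. With cytokines KIF20A read 32.4, 39.4 and 41.8 CPM on the smooth surface and 41.6, 37.0 and 36.0 CPM on the fractal surface. With THP-1 cells KIF20A read 35.8, 38.4 and 35.7 CPM on the smooth surface and 8.39, 9.10 and 4.64 CPM on the fractal surface. Fractal THP-1 replicate 3 was the lowest, and without that library and smooth cytokines replicate 2 the gene was still called. KIF11, the motor Eg5 that separates the spindle poles, read 73.0, 78.2 and 68.2 CPM in smooth and 68.9, 65.1 and 71.2 CPM in fractal controls. With cytokines KIF11 read 41.6, 45.7 and 52.0 CPM on the smooth surface and 48.9, 34.2 and 44.1 CPM on the fractal surface. With THP-1 cells KIF11 read 63.2, 52.1 and 49.1 CPM on the smooth surface and 12.5, 13.2 and 16.4 CPM on the fractal surface. Controls of the surfaces overlapped for KIF11. KIF23 (-2.43 ± 0.11), KIF2C, a microtubule depolymerase (-2.61 ± 0.12), and KIF4A, a chromosome-bound motor (-2.76 ± 0.13), fell with THP-1 cells on fractal topography as well.

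Of 7 further genes of the spindle and cytokinesis, 6 fell with cytokines on each surface and with THP-1 cells on smooth topography, and all 7 fell with THP-1 cells on fractal topography. TPX2 (ENSG00000088325, chromosome 20, 31739271 to 31801805), which activates aurora A on the spindle, read 207, 195 and 194 CPM in smooth and 185, 175 and 172 CPM in fractal controls. With cytokines TPX2 read 75.1, 96.6 and 104 CPM on the smooth surface and 98.2, 93.1 and 97.0 CPM on the fractal surface. With THP-1 cells TPX2 read 104.9, 89.7 and 98.4 CPM on the smooth surface and 24.9, 26.4 and 28.5 CPM on the fractal surface. The cytokine values of the surfaces overlapped. ASPM, a protein of the spindle poles, read 169.7, 153 and 155 CPM in smooth and 138, 139 and 136 CPM in fractal controls. With cytokines ASPM read 59.6, 71.8 and 71.2 CPM on the smooth surface and 58.3, 53.2 and 65.9 CPM on the fractal surface. With THP-1 cells ASPM read 73.8, 64.8 and 67.4 CPM on the smooth surface and 19.2, 17.9 and 16.1 CPM on the fractal surface. ANLN, anillin of the cleavage furrow, fell as ASPM did with THP-1 cells on fractal topography (-2.75 ± 0.10, beside -2.95 ± 0.10). NUSAP1 was low, at 8.76, 8.52 and 10.3 CPM in smooth controls, and fractal THP-1 replicate 3 held 0.0843 CPM of it. Its exons overlap AC087721.2 on the same strand, so its level is uncertain.

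Per kilobase of exon, which allows genes to be ranked, TOP2A had the highest level in smooth controls (57.8 ± 0.23 CPM per kilobase), followed by CDC20 (57.6 ± 0.87), TPX2 (55.1 ± 2.1), CCNB1 (54.7 ± 0.54) and ANLN (50.5 ± 1.2). The lowest were ESPL1 (4.03 ± 0.24), NUSAP1 (3.20 ± 0.33) and PRC1 (0.25 ± 0.03). NUSAP1 and PRC1 share exon sequence with another gene on the same strand, so their ranks are uncertain. Of the 41 pairs of neighbours in this order, 29 overlapped within their SD, among them TOP2A and CDC20. Over the 18 libraries the log2 levels of the members ran closely together: Pearson's r had a median of 0.965 over 861 pairs, from 0.593 to 0.995, a description in which the groups and libraries are shared. PRC1 had the lowest correlation with the mean of the 42 (0.730), followed by NUSAP1 (0.914) and SPC24 (0.926). The genes outside the 42 most like their mean profile were KPNA2 (0.997), SPAG5 (0.997), CIT (0.995), GTSE1 (0.994) and MELK (0.993), followed by CEP55, HJURP, KNL1, CKAP2L and DEPDC1.

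Other genes of the cell cycle were counted by lists that hold none of the 42. Beside these counts, 12.4% and 12.9% of all genes fell with cytokines on smooth and fractal topography, and 17.7% and 25.5% with THP-1 cells. All 18 further mitotic kinesin and cytokinesis genes fell in each of the 4 treatment comparisons, with medians from -0.90 (THP-1, smooth) to -2.33 (THP-1, fractal). Examples with THP-1 cells on fractal topography were CIT, citron kinase (-2.79 ± 0.12), and CEP55 (-2.78 ± 0.13), both of cytokinesis. Of 16 condensin and cohesin genes, which shape and hold sister chromatids, 11 and 14 fell with cytokines on smooth and fractal topography, and 10 and 14 with THP-1 cells. SMC4, a condensin subunit, was at -0.76 ± 0.08 with THP-1 cells on smooth and -1.97 ± 0.08 on fractal topography. Of 19 inner kinetochore and CENPA loading genes, 10 and 11 fell with cytokines and 8 and 13 with THP-1 cells. HJURP, the chaperone of CENPA, was at -0.92 ± 0.10 and -2.56 ± 0.11 with THP-1 cells on smooth and fractal topography. CENPT, which links the centromere to NDC80, was the exception that rose on fractal topography, by 0.52 ± 0.11 with cytokines and 0.29 ± 0.12 with THP-1 cells. Of 15 outer kinetochore and checkpoint genes 7 and 9 fell with cytokines and 6 and 11 with THP-1 cells, and of 12 mitotic entry genes 7 and 7, and 5 and 9.

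Genes of DNA replication fell as a whole list in 1 of the 4 treatment comparisons. Of 30 replication and G1/S genes, 6 fell with cytokines on smooth and 21 on fractal topography, beside 12.4% and 12.9% of all genes, and none rose. With THP-1 cells 4 fell and 1 rose on smooth topography, while all 30 fell on fractal topography, beside 17.7% and 25.5% of all genes tested. The 4 of 30 on smooth topography are thus no more than the share of all genes. Their medians with THP-1 cells were -0.03 and -1.59, beside -0.89 and -2.72 for the 42 mitotic genes. In the interaction with THP-1 cells 29 of the 30 were lower, and RRM2, a subunit of ribonucleotide reductase, was lower on fractal than on smooth topography (-2.59 ± 0.16). UHRF1, a DNA methylation factor, was the gene that rose with THP-1 cells on smooth topography (0.40 ± 0.15). PCNA, the replication clamp, was at 65.8 ± 3.4 CPM in smooth controls, 77.2 ± 2.8 CPM with THP-1 cells on smooth and 47.3 ± 5.9 CPM with THP-1 cells on fractal topography. In the interaction with cytokines 2 of the 30 passed, ORC1, of the origin recognition complex (-1.38 ± 0.31), and MCM4, of the replicative helicase (-0.59 ± 0.15). Of all genes tested, 1.43% were lower in that interaction and 7.88% in the interaction with THP-1 cells.

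**Figure D4:**
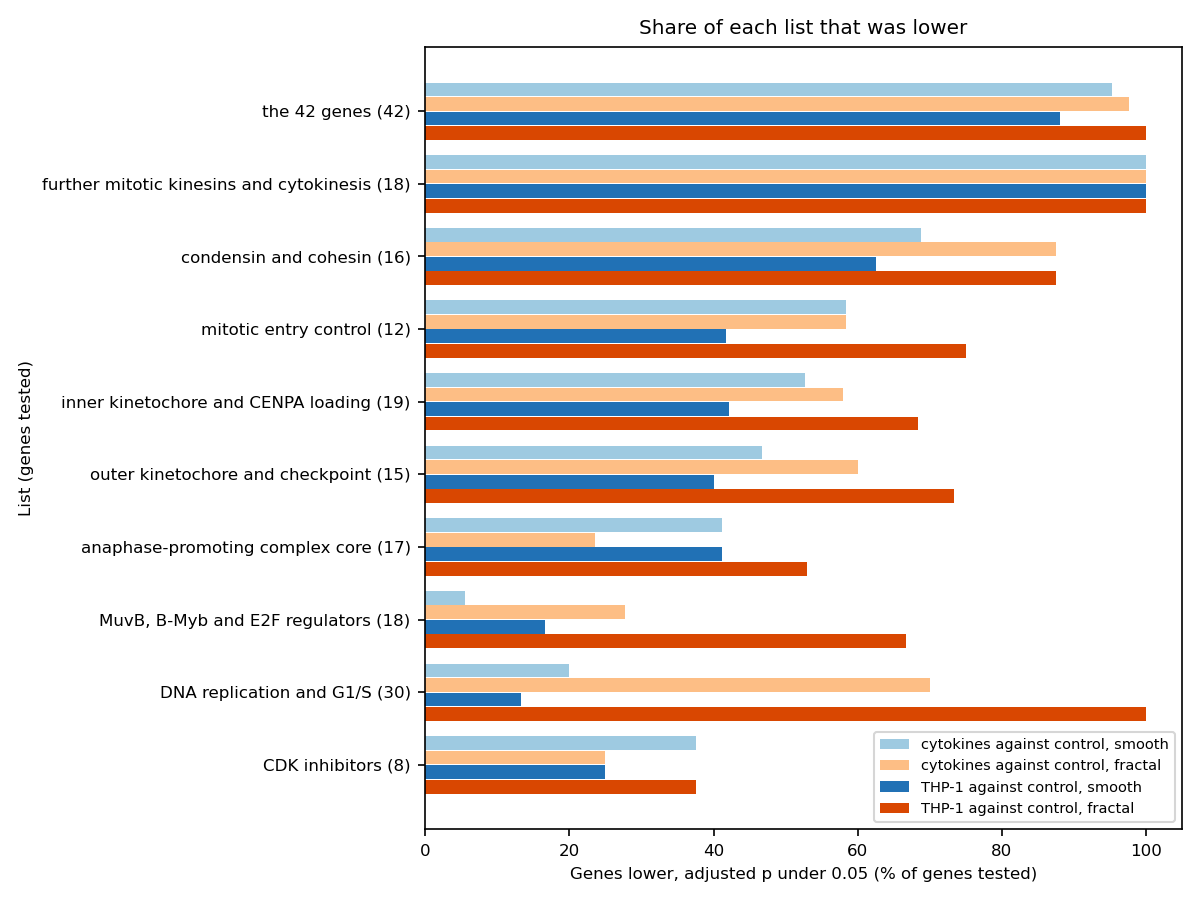
Share of the tested genes of each list that were lower than control at an adjusted p below 0.05 (horizontal bars from 0, in percent), for cytokines and THP-1 cells on each topography, with the number of genes tested in brackets. The 42 mitotic genes and the 18 further kinesin and cytokinesis genes have long bars in every comparison, and the 30 DNA replication genes reach the full length with THP-1 cells on fractal topography only.

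Of 18 MuvB, B-Myb and E2F genes 12 fell and 2 rose with THP-1 cells on fractal topography, while 3 fell and 1 rose on smooth topography, where 17.7% of all genes fell (25.5% on fractal topography). MYBL2, which encodes B-Myb, a partner of MuvB at mitotic promoters, was at 69.2 ± 2.5 CPM in smooth and 68.0 ± 7.7 CPM in fractal controls. With THP-1 cells it was at 51.0 ± 2.2 CPM on the smooth surface and 11.9 ± 2.4 CPM on the fractal surface (interaction -2.09 ± 0.21). E2F1, an activator of S phase genes, was at 22.8 ± 2.8 CPM with THP-1 cells on smooth and 5.00 ± 0.68 CPM on fractal topography (interaction -2.35 ± 0.21). FZR1, the activator of the anaphase-promoting complex outside mitosis, passed in none of the 9 comparisons and stood at 55.4 ± 7.6 CPM to 62.8 ± 3.9 CPM over the groups. Of the 17 core genes of that complex, 9 fell and 2 rose with THP-1 cells on fractal topography. On smooth topography 7 fell and 1 rose with THP-1 cells. In the interaction with THP-1 cells 2 of the 17 were lower, against 7.88% of all genes. Cytokines gave 7 lower on smooth and 4 on fractal topography, with 2 higher on each, where 12.4% and 12.9% of all genes fell.

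CDK inhibitors, 8 genes that restrain the cycle, did not move as one. With THP-1 cells on fractal topography 3 rose and 3 fell, beside 4035 higher and 4114 lower of all 16129 genes. On smooth topography 1 rose and 2 fell, beside 2794 and 2861 of all genes. Cytokines raised 1 on each surface, and 3 fell on smooth and 2 on fractal topography. Of all genes 12.4% and 12.9% fell there. CDKN1C, p57, went from 11.6 ± 0.35 CPM in fractal controls to 85.7 ± 26 CPM with THP-1 cells (2.88 ± 0.17), and on smooth topography from 11.4 ± 1.3 to 25.1 ± 1.2 CPM (1.14 ± 0.17). It also rose with cytokines on smooth (1.53 ± 0.17) and fractal topography (1.27 ± 0.17). CDKN1A, p21, was at 231 ± 7.2 CPM in smooth and 131 ± 2.4 CPM in fractal controls, and at 244 ± 8.6 and 240.4 ± 1.9 CPM with THP-1 cells on smooth and fractal topography. With THP-1 cells CDKN1A rose on fractal topography (0.88 ± 0.08) and did not pass on smooth (0.08 ± 0.07), and the interaction passed (0.80 ± 0.11). With cytokines CDKN1A fell on smooth topography (-1.10 ± 0.08) and did not pass on fractal (0.18 ± 0.08). CDKN3, a phosphatase gene of the list, fell in all 4 treatment comparisons and was at -2.80 ± 0.21 with THP-1 cells on fractal topography. In that comparison CDKN2C (-1.93 ± 0.17) and CDKN2D (-0.48 ± 0.20) also fell, and CDKN2A rose (0.40 ± 0.13). CDKN2C did not pass with THP-1 cells on smooth topography (-0.12 ± 0.16), and its interaction with THP-1 cells passed (-1.81 ± 0.23).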

How the data were processed

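RNA of 18 libraries was sequenced without strand information, per the labels' protocols. The authors deposited raw read counts per gene. The submitters' processing notes list featureCounts 1.5.0-p3 and HISAT2 2.0.5, besides CASAVA and the build GRCh38 (hg38). The annotation is not given in the sources used here, but the 58735 gene IDs of the table are those of GENCODE 29. Counts were tested with edgeR 4.0.16 (R 4.3.3): TMM scaling, filterByExpr (minimum count 10, minimum total 15), and 1 quasi-likelihood fit over the 6 groups with 12 residual degrees of freedom. There were 9 comparisons, each adjusted by Benjamini-Hochberg over 16129 genes. The SE of a log2 fold change was derived from the test, as its absolute value divided by the square root of the F statistic. Alternatives used DESeq2 1.42.0, limma 3.58.1 (voom), other scalings and filters, the compared groups alone, a replicate block and libraries left out. The scripts were tested on simulated data.

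The members and lists were chosen with earlier results of these data known. Values by library are given for 22 members set by role, and for SPC24 and in part CENPM, PRC1 and NUSAP1. The 2 highest and 2 lowest members of each comparison are named, as are members that missed a call. The regulators CDKN1A, MYBL2, E2F1, FZR1 and PCNA, up to 2 genes per other list with the smallest adjusted p and the 10 genes most like the members' mean are also named. Other genes, among them CDKN1C, CDKN2A, CDKN2C, CDKN2D, CDKN3, CENPT, UHRF1, ORC1 and MCM4, were chosen after their values were seen. Some items are not reported here.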

Additional observations from a re-analysis of the deposited data

Results flagged for a closer look

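The response to THP-1 cells differed between the topographies by the interaction test in edgeR (adjusted p below 0.05) for each of 22 genes chosen by role. The value is the log2 fold change on fractal topography minus that on smooth topography. Among regulators, cyclin B1 and kinases it was -2.43 for FOXM1, -2.18 for MKI67, -1.76 for TOP2A, -1.67 for CCNB1, -1.92 for CDK1, -1.83 for PLK1, -2.14 for AURKB and -1.75 for BIRC5. For checkpoint genes and partners of the anaphase-promoting complex it was -1.69 for BUB1, -1.59 for MAD2L1, -2.27 for CDC20, -2.25 for UBE2C and -1.21 for PTTG1. For centromere and kinetochore genes it was -2.03 for CENPA, -1.47 for CENPE, -1.49 for CENPF, -1.63 for NDC80 and -1.58 for SKA1. For spindle genes it was -1.88 for KIF11, -2.08 for KIF20A, -1.74 for ASPM and -1.71 for TPX2. Groups of 3 libraries are too small for a test of outlying samples.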

How the results depend on the processing

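The fall of the 42 genes with treatment kept its direction and its count within 1.5 times under every alternative run. Leaving out 1 library at a time gave 37 to 41 genes called with cytokines on smooth and 37 to 39 on fractal topography, 32 to 35 with THP-1 cells on smooth and 41 to 42 on fractal topography, 42 to 42 between the surfaces with THP-1 cells, and 41 to 41 in the THP-1 interaction. Over all genes, in either direction, those fits called 3237 to 4013 with cytokines on smooth and 3176 to 3718 on fractal topography. With THP-1 cells they called 4602 to 4901 on smooth and 7223 to 8592 on fractal topography. Between the surfaces with THP-1 cells they called 2341 to 3847, and in the THP-1 interaction 1632 to 3266. In the control comparison the single call became 2 with upper-quartile scaling, 2 with no filter, 2 in DESeq2, 3 in limma-voom, 29 with the control groups alone, 8 without both libraries that stood apart (chosen after seeing the data), and 0 to 0 with 1 library left out. Calls over all genes, in either direction, were 286 of 16129 in the main fit and 2755 of 14187 with the control groups alone. Without both libraries that stood apart they were 1188 of 16569, and with no filter 424 of 33741. Of 16129 genes, upper-quartile scaling called 294, DESeq2 480 and limma-voom 281. With 1 library left out 131 to 150 of all genes were called. Between the surfaces under cytokines the count of the 42 ran from 0 to 4 with 1 library left out. The 4 came without smooth cytokines replicate 1, where 649 of all 16758 genes passed in either direction. TPX2, at 0.06, reversed to -0.078 without that library, with a range up to 0.15. In the cytokine interaction the count of the 42 was 0 to 0 with 1 library left out and 2 without the libraries that stood apart. In the latter fit 1461 of all 16569 genes passed in either direction. The cause of these changes was not tested. For 159 single-gene values followed under the alternatives, which do not cover every gene in every comparison, the recomputed value lost a call in 46 instances, gained one in 9 and kept direction and call in 2656. AURKB with THP-1 cells on smooth topography gained one with no filter (adjusted p = 0.00699), in limma-voom (0.0327) and with the compared groups alone (0.000309).

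Same-numbered libraries did not deviate together over all genes: over 21 pairs r ran from -0.05 to 0.05. The labels do not say whether the numbers pair the samples, and with 3 libraries per group these correlations cannot settle it. A replicate block gave 1, 0 and 42 calls between the surfaces (control, cytokines, THP-1), 40 and 40 with cytokines, 36 and 42 with THP-1 cells, and 0 and 41 in the interactions. Over all 16129 genes, in either direction, the block called 283, 694 and 3114 between the surfaces. It called 4063 and 4075 with cytokines, 5565 and 8059 with THP-1 cells, and 416 and 2086 in the interactions. Depth limits PRC1, CENPM and NUSAP1 most, the members with the fewest counts in the fractal THP-1 group. PRC1 and NUSAP1 also share exon sequence with another gene on the same strand. The part of that overlap in their low counts was not tested.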
